A study of Arabidopsis thaliana with 2 samples.

Results

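The genes described here are 9 loci of the ethylene response factor (ERF) family of Arabidopsis thaliana, examined for binding by their relative ERF115. The loci were chosen by their ERF name together with an assigned peak in the deposited list of ERF115 binding regions. For 2 of them, a peak at a gene close by was used instead. Other ERF genes close to a peak, such as ERF2 and ERF8, are not among the 9. Of the 9, 7 were themselves assigned a peak, 1 peak each: ERF1 (AT3G23240), ERF-1 (AT4G17500, also called ERF1A), ERF5 (AT5G47230), ERF6 (AT4G17490), ERF105 (AT5G51190), ERF10 (AT1G03800) and ERF12 (AT1G28360). The other 2, ERF13 (AT2G44840) and ERF11 (AT1G28370), were assigned none and are described through the nearest peaks in gene order. These 7 peaks were part of 612 in all, assigned to 608 loci.

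ERF proteins bind DNA through an AP2/ERF domain, and many recognise the GCC-box, an element found in promoters of genes induced by ethylene and in defence. The family is divided into groups by the sequence of that domain. Group IX holds mostly activators that act in ethylene, jasmonate and stress responses, and group VIII-a holds repressors that carry the EAR motif. Of the 9 loci, ERF1, ERF-1, ERF5, ERF6, ERF105 and ERF13 belong to group IX, and ERF10, ERF11 and ERF12 to group VIII-a.

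Chromatin was purified from 2 kinds of cells of the PSB-D suspension culture, which derives from the ecotype Landsberg erecta and was grown in the dark with the auxin NAA and kinetin. The first group carried 35S::ERF115-HBH, in which the constitutive 35S promoter drives ERF115 with the HBH affinity tag, so the protein was present at a level and in cells set by that promoter. The second was wild type and served as the mock purification. Both were harvested 2 days after subculturing and fixed for 10 minutes in 0.75% formaldehyde, and each group had 1 library. With 1 library per group there is no replicate error for any value below, and no difference between peaks was tested. The peaks are those of the ERF115-HBH sample, and the mock library's own values and the depth behind each peak were not analysed here. The identity of the cells was not checked, since the files used hold peaks only.

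The peak score is the authors' value for each peak. In MACS it is 10 times the negative log10 of a p-value, so that a score of 50 stands for a p-value of 1e-05, and the list ran from 50.01 to 537.85. Such a p-value can be set against a control library, but the processing notes give no parameters. The track name holds 2 library codes without saying which, if any, was the control. That the mock was the control for these scores is taken from the series' design. The positions given are those of the deposited list in the TAIR10 build, counted from 1. Each peak also carries the authors' location label relative to its assigned gene and 1 position inside the peak.

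The repressor genes held both ends of the range of scores. ERF12, a repressor of group VIII-a, had the highest score of the 7 peaks, 139.6, rank 95 of 612. Its peak lay at chr1:9951359-9953160 with the label UTR 3', a label that 23 of the 612 peaks carried. ERF10, another EAR-type repressor of that group, had the lowest score, 59.02 at rank 486, at chr1:957396-958731 and labelled intergenic 5'. ERF12 thus stood in the upper part of the list, and ERF10 was nearer to the lowest score in the list than to the median of 78.9.

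ERF11, a repressor known to act on ethylene synthesis genes and on gibberellin responses, follows directly after ERF12 in the order of protein-coding genes. Its nearest peak was therefore the ERF12 peak, which is labelled for the 3' end of ERF12. On the other side of ERF11 the next gene with a peak was AT1G29290, 72 protein-coding genes away, with a score of 51.76. Each peak is assigned to 1 gene, and whether the 3' end of ERF12 faces ERF11 was not examined. Strands were not used, and gene coordinates served only to order the genes.

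Among the activators, ERF105, known for its role in cold responses, had the highest score, 101.34 at rank 187. Its peak at chr5:20800613-20803498 was labelled intergenic 5'. ERF1, which acts downstream of EIN3 and joins ethylene and jasmonate signals at defence genes, had a score of 78.98 at rank 306, the middle of the list. That peak was labelled intergenic 5' as well and lay at chr3:8292467-8297152. ERF6 and ERF-1 had scores of 75.9 (rank 323) and 65.15 (rank 413). ERF6 is a substrate of the stress-activated kinases MPK3 and MPK6 and restrains leaf growth under stress. ERF-1 is an activator at the GCC-box. The ERF6 peak, at chr4:9752210-9754912, was labelled coding 3', and the ERF-1 peak, at chr4:9758467-9760726, intergenic 5'. ERF5, which acts with ERF6 in stress and defence, had a coding 3' peak at chr5:19179538-19182091 with a score of 63.76 (rank 430).

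The 7 scores had a median of 75.9, against 79.0 for the other 605 peaks. Of the 7 peaks 3 lay above the median of the whole list and 4 below it, and 2 reached a score of 100, as did 192 of all 612. The ERF peaks were thus of middling score in this list. Of their labels 4 were intergenic 5', the label of 275 of the 612 peaks, 2 were coding 3', the label of 64, and 1 was UTR 3'. None of the 7 carried the mark TP, which stands beside 22 of the 612 peaks in the annotated list and is not explained there.

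The ERF1 peak stood out by its width rather than by its score. It spanned 4686 bp, rank 43 of 612 by width. Among the 100 peaks of closest score the median width was 1883 bp, and 3 were wider. The other widths, in order of size, were 2886 bp at ERF105, 2703 bp at ERF6, 2554 bp at ERF5, 2260 bp at ERF-1, 1802 bp at ERF12 and 1336 bp at ERF10. The median of these 7 was 2554 bp, against 1891 bp for the other peaks, and 5 of the 7 were wider than the median of their 100 closest peaks by score. ERF12 combined the highest score with a width below the 2151 bp median of its own 100 closest peaks. Score and width were only weakly related over the whole list (Spearman's rho 0.10 over 612 peaks from 1 library, given as a description). A peak of 4686 bp can reach past the promoter of its assigned gene, and ERF1 is the last of 3 consecutive group IX genes. The genes before it, ESE1 (AT3G23220) and TDR1 (AT3G23230), were assigned no peak.

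**Figure D1:**
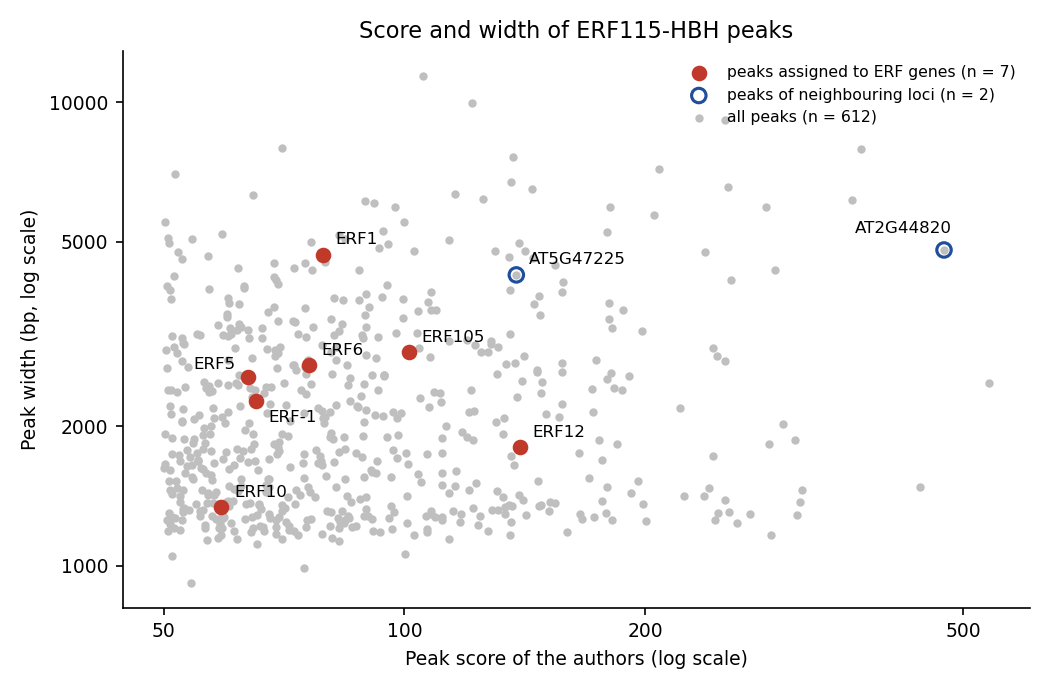
Peak score of the authors (horizontal, log scale) against peak width in bp (vertical, log scale), 1 point per peak. Filled red points are the 7 peaks assigned to ERF genes, open circles are the peaks of AT2G44820 and AT5G47225 beside ERF13 and ERF5, and grey points are all 612 peaks. The ERF peaks lie between scores of 59.02 and 139.6, and ERF1 is the widest of the 7 at 4686 bp.

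The position that the authors give inside each peak lay near the middle in 4 of the 7 ERF peaks. It was 8.5 bp from the midpoint at ERF5, 62.5 bp at ERF10, 115.5 bp at ERF1 and 176.5 bp at ERF105. At ERF12 it was 267.5 bp off, at 64.8% of the peak's length. The ERF6 and ERF-1 positions were farther off, at 520 and 524.5 bp, and both lay towards the lower coordinate, at 30.7% and 26.8% of the peak's length. Over the other 605 peaks the median distance from the midpoint was 209 bp, with quartiles of 46 and 551 bp, so the ERF6 and ERF-1 values were just under the upper quartile. As a share of peak length, the quartiles of the other peaks were 39.1% and 59.4%, so ERF6 and ERF-1 lay below this range and ERF12 above it.

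**Figure D2:**
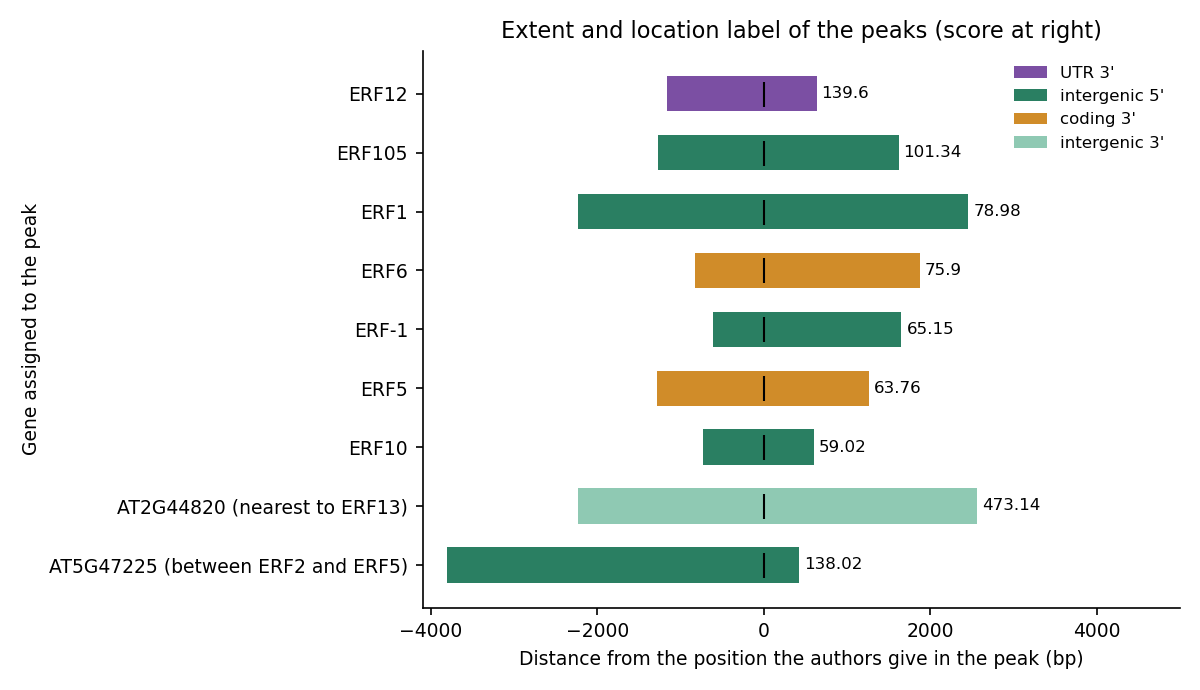
Extent of the 7 ERF peaks and of the peaks of AT2G44820 and AT5G47225, drawn to scale in bp from the position the authors give inside each peak (black tick). Bar colour gives the location label and the number at the right the score. The ERF1 bar is the longest of the ERF genes, and the AT5G47225 bar reaches 3812 bp to the side of lower coordinates.

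The ERF6, ERF-1 and ERF5 peaks each had another peak close by. ERF6 and ERF-1 are adjacent genes on chromosome 4, and both were assigned a peak of their own. The positions of those peaks were 6031 bp apart, with 3554 bp between their edges. Of all 612 peaks, 57 had another peak at that distance or closer, while the median gap to the nearest peak was 37378 bp. On the outer sides of the pair the next peaks belonged to AT4G17250, with a score of 82.51 and 82151 bp from the ERF6 position, and to SCABP5 (AT4G17615), a calcium sensor also named CBL1, with a score of 67.74 and 58815 bp from the ERF-1 position.

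On chromosome 5 the ERF5 peak was likewise one of a pair. The partner peak, at chr5:19170471-19174710, was assigned to AT5G47225, a locus that the RefSeq table of assembly TAIR10.1 lists as a pseudogene and that lies between ERF2 (AT5G47220) and ERF5 in gene order. It had a score of 138.02 (rank 99), above the 63.76 of the ERF5 peak, was labelled intergenic 5' and spanned 4240 bp. Its position lay at 89.9% of its length, towards ERF5, which was the farthest towards the upper end of any of the 612 peaks. The positions were 6540 bp apart, with 4827 bp between the edges, and 86 of the 612 peaks had a neighbour at that distance or closer. ERF2, a group IX activator of defence genes and the locus directly before AT5G47225, was assigned no peak. From its position the AT5G47225 peak extended 3812 bp towards lower coordinates, the side of ERF2 in gene order. Whether that peak overlaps ERF2 was not examined. On the other side the next peak belonged to RPS19 (AT5G47320), a ribosomal protein gene, 24541 bp from the ERF5 position and with a score of 113.72.

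ERF13, a group IX gene known for effects on abscisic acid responses and lateral roots, stood near the highest-scoring of the peaks described here. The nearest gene with a peak was AT2G44820, 2 protein-coding genes before it, with AT2G44830 in between. That peak, at chr2:18485473-18490271, had a score of 473.14, the second of the 612, spanned 4799 bp and was labelled intergenic 3' of AT2G44820. On the other side of ERF13 the next gene with a peak was ASG3 (AT2G44980), 14 protein-coding genes away, with a score of 97.85. The distance in bp between the AT2G44820 peak and ERF13 is not given here, since the gene table is of another build than the peaks. Within 100 kb of the AT2G44820 position lay 4 other peaks, against a median of 1 for all peaks.

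ERF12 and ERF1 had no other peak within 100 kb, where the median over all peaks was 1. By gap to the nearest peak ERF12 lay at percentile 94.4 of all peaks and ERF1 at percentile 77.2. The peaks on either side of ERF12 were those of AT1G27210, with a score of 111.54 and 497547 bp away, and AT1G29290, 292029 bp away. Beside ERF1 they were those of AT3G22937, with a score of 67.34 and 166317 bp away, and MEE37 (AT3G23440), with a score of 62.91 and 111722 bp away. The nearest peaks of ERF105 belonged to NBP35 (AT5G50960), which acts in iron-sulfur cluster assembly, 67673 bp away with a score of 83.01, and to EYE (AT5G51430), a Golgi complex subunit, 89125 bp away with a score of 53.85. ERF10 had the peak of the prohibitin gene PHB2 (AT1G03860) at 20593 bp, with a score of 51.96. In the other direction its next peak, 472407 bp away, was that of GA2OX6.

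**Figure D3:**
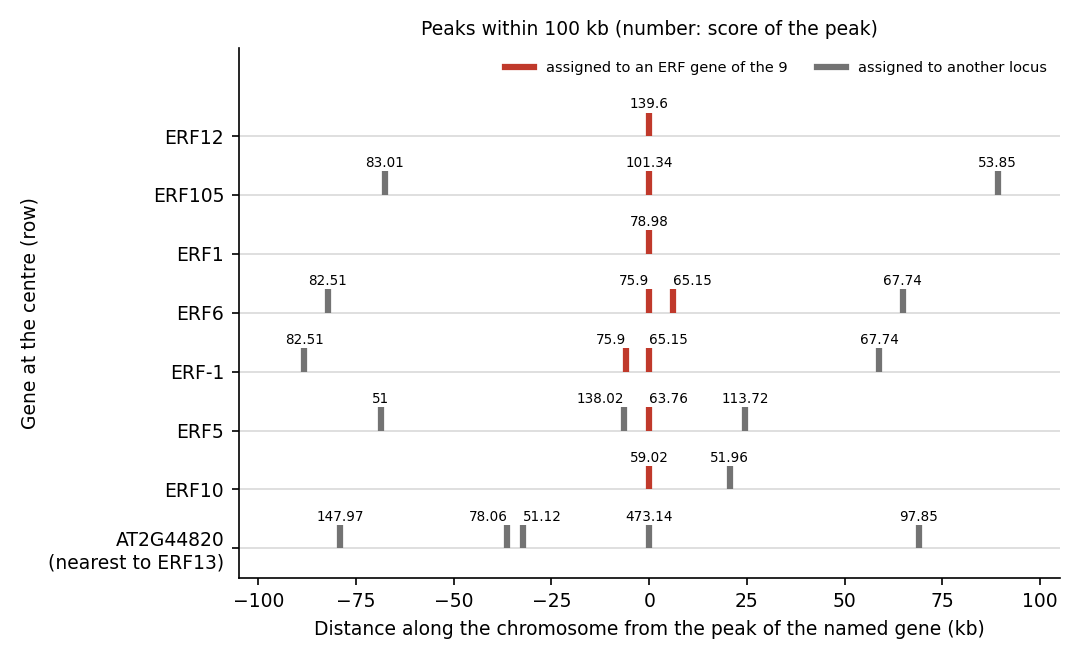
Peaks within 100 kb of each ERF peak, and of the AT2G44820 peak nearest to ERF13, as distance in kb from the position of the peak of the named gene (horizontal), 1 row per gene. Red lines are peaks assigned to 1 of the 9 ERF loci, grey lines peaks of other loci, and numbers are scores. ERF6 and ERF-1 lie 6031 bp apart, ERF5 has the 138.02 peak of AT5G47225 beside it, and ERF12 and ERF1 have no other peak in the window.

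To set the 9 loci among their relatives, the 17 genes of group IX and the 8 of group VIII-a were counted. Of group IX 5 had an assigned peak, and of group VIII-a 2, which is 29.4% and 25.0% of the genes. Over all 27444 nuclear protein-coding genes the share was 2.06%. The 7 genes are the same ones that were chosen for having a peak, so the counts describe the groups and support nothing further. The share of all genes was 0.656% for peaks with a score of at least 100, where ERF105 and ERF12 were left, and 1.04% for the 306 peaks with the highest scores, where ERF1 joined them as the last of the 306. With 5' labels only it was 1.36%, and ERF1, ERF-1, ERF105 and ERF10 were left.

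The remaining genes of both groups stood at very different distances from a peak. Of the 17 genes of group IX 9 had a peak or lay within 2 protein-coding genes of one that did, against 9.50% of all genes. Beyond the 5 with a peak these were TDR1 and ESE1, 1 and 2 genes from ERF1, ERF2, 2 genes from ERF5, and ERF13, 2 genes from AT2G44820. The choice of the loci fixed this count, since ERF13 was chosen for its nearby peak and TDR1, ESE1 and ERF2 counted only through ERF1 and ERF5. Of the 8 genes of group VIII-a 4 lay at or directly next to a gene with a peak, against 5.93% of all genes, or 5.28% when pseudogenes and RNA genes are counted in the gene order. Of these 4, ERF10, ERF12 and ERF11 were chosen for their own or a nearby peak, so nothing is read from the difference. The fourth was ERF8 (AT1G53170), a repressor whose neighbour AT1G53180 had a peak at chr1:19829745-19834198, labelled coding 3', with a score of 154.26. The adjacent group IX genes ERF107 and ERF104 were 4 and 5 genes from AT5G61550, whose coding 3' peak scored 100.78. Among the genes farther off were the jasmonate and ethylene integrator ORA59, 63 genes from the nearest gene with a peak, ERF15 at 132 genes, and the repressors ERF4 at 63 and ERF3 at 41 genes.

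Of these 25 genes 11 stand in 5 runs, in which each is at most 2 protein-coding genes from the next: ESE1 with TDR1 and ERF1, ERF6 with ERF-1, ERF2 with ERF5, ERF12 with ERF11, and ERF107 with ERF104. In the runs 5 of the 11 genes had a peak, and among the 14 that stand alone 2 did, ERF105 and ERF10. The share of all protein-coding genes was 2.06%. All the genes counted here with a peak were chosen for having one, so nothing is read from these counts. Neighbouring genes share the surrounding DNA and can share a peak, so genes of a run are not independent of each other.

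**Figure D4:**
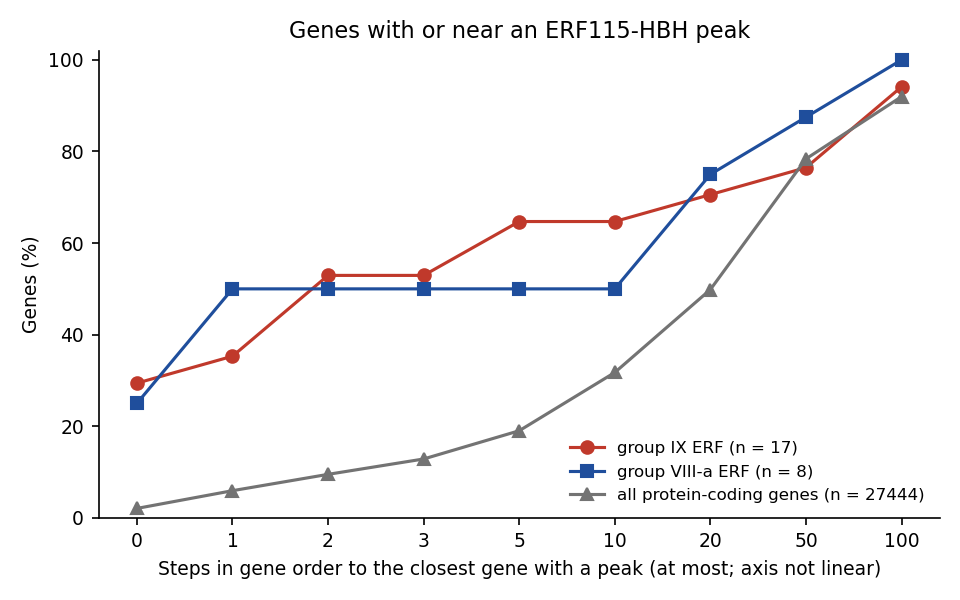
Share of genes (vertical, %) with a peak within a given number of steps in the order of protein-coding genes (horizontal, unequal spacing, 0 meaning an assigned peak), for the 17 genes of group IX, the 8 of group VIII-a and all 27444 nuclear protein-coding genes. At 0 steps the shares are 29.4%, 25.0% and 2.06%, and the lines come together at 50 to 100 steps. The ERF lines include the 9 loci chosen for a peak or a nearby peak, which sets their start.

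Upstream of these genes, ethylene is sensed by receptors of the ETR1 type. The signal passes through CTR1, EIN2 and the factors EIN3 and EIL1 to ERF1, while MPK3 and MPK6 act on ERF6. None of 13 genes of these steps was assigned a peak or lay directly next to one that was. At the share of 2.06% for all genes fewer than 1 would have a peak, so the lack of a peak does not set them apart. ERF115 itself (AT5G07310) was assigned none, the nearest gene with a peak being 24 genes away. A list of 8 genes described elsewhere as targets of ERF1, ERF5 or ERF6 was written with earlier results of these data known, so nothing is read from its count. Of these 8 genes 1 had a peak, against 2.06% of all genes. This was GA2OX6 (AT1G02400), which encodes a gibberellin-inactivating enzyme and is activated by ERF6. Its peak, at chr1:485142-486321, was labelled intergenic 5' and had a score of 106.81 (rank 174). It was narrow, at 1180 bp, and 96 of the 100 peaks of closest score were wider. The defensin genes PDF1.2 and PDF1.2b, PR4, the chitinase gene HCHIB, WRKY33, MYB51 and STZ had no assigned peak.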

How the data were processed

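The authors deposited the ERF115-HBH peaks as intervals and, in another table, with genes attached. The submitters' processing notes name the build TAIR10, the peak caller MACS 1.4.2, the aligner BWA 0.5.9 and also Picard, CASAVA 1.8.2 and SAMtools 0.1.18, without parameters. Peak scores are the deposited values, and the deposited Z score equals the score standardised over the list. How the authors set the assigned locus, the location label and the position is not recorded in the labels or headers.

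The files were joined by peak name and agreed in score for 612 of 612 peaks. Ranks, widths and distances between peaks were computed with pandas 2.3.3 in Python 3.11.15. Gene order and names came from the RefSeq gene table of TAIR10.1, which held 600 of the 608 loci and all 47 listed genes. Its start coordinates served only to put the genes in order. The count of genes to the nearest gene with a peak was checked on simulated gene orders. No sequence was available for the planned motif and protein comparisons, so these were not run. No statistical test was made. The members and gene lists were chosen with earlier results of these data known. Named are the 9 loci, list genes with a peak, list genes next to a member, and the loci of the peaks on either side. Other list genes and peaks at genes close to list genes were named after their values were seen.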

Additional observations from a re-analysis of the deposited data

How the results depend on the processing

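Of the 9 loci, 7 had an assigned peak. This became 2 among peaks scoring at least 100, 3 among the 306 peaks with the highest scores, 4 with 5' labels only, and 8 when adjacent genes were counted, whichever gene order was used. For group IX the count of 5 became 1, 2 and 3 under the first 3 settings, and 6 or 7 with adjacent genes. For group VIII-a the count of 2 became 1 under each of the first 3 and 4 with adjacent genes. The order that includes pseudogenes and RNA genes was chosen after seeing the data. Fewer peaks enter under the first 3 settings. The counts of 0 ethylene and kinase genes and of 1 target gene were the same under every alternative run. Only the settings with adjacent genes could have raised the count of 0, since the first 3 remove peaks. The median score of 75.9 was 77.4 with the AT2G44820 peak added and 70.5 without ERF12. Measured between midpoints, the distances of the peak pairs were 6035.5 bp for ERF6 and ERF-1 and 8224 bp for ERF5 and AT5G47225. The alternatives for motifs and proteins were not run. No paired analysis was possible because neither group has a second library, and for the same reason none was left out. Since the depth is not known, a gene without a peak may still be bound below detection.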
